A study of Mus musculus with 2 samples.

Results

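The Sfmbt2 intronic miRNA cluster was examined in mouse cerebral cortex. Its members are all miRNA genes of GENCODE M21 that lie within Sfmbt2 on chromosome 2 (mm10, 10370510 to 10595253) on the same strand, the plus strand. This rule uses position alone and gave 119 of the 2202 miRNA genes counted. The study consists of 1 group of 2 microRNA-seq libraries from cortex tissue of strain B6NCrl, labelled wild-type female controls and supplied by MODEL-AD. Sex and age are given as not collected, and the labels number the libraries as biological replicates 1 and 2 while citing a single donor record. The spread between them may therefore be technical in part. Only 17 of the 119 members held any uniquely placed read, and 8 reached 2 CPM in each library and are called detected here, CPM being counts per 1000000 counts in miRNA genes. Mir467d and Mir669c led, and the long middle of the cluster held no uniquely placed read.

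Sfmbt2 encodes a Polycomb group protein and is an imprinted gene, expressed from the paternal copy in the early embryo and in extraembryonic tissue. One of its introns carries a large array of miRNA precursors of the miR-297, miR-466, miR-467 and miR-669 families, found in rodents, which grew by tandem duplication and are rich in short repeats of U with G and of C with A. The array is best known from the placenta, where it is needed for normal trophoblast layers. A miRNA gene is transcribed as a hairpin precursor, cut to a mature RNA of about the length of a sequencing read, and loaded into Argonaute to repress messenger RNAs that match its seed. Copies of a precursor can give the same mature RNA, and a read of such an RNA fits several places in the genome.

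All 119 members lay in a single intron, between positions 10461473 and 10523944 of chromosome 2, which is intron 10 or intron 11 of the host, depending on the annotated transcript. No precursor overlapped an exon of the host. The precursors spanned 53.0 kb of this 62.5 kb intron, with a median gap of 207 bases between neighbours and a median length of 98 bases. By symbol, 29 belonged to miR-669, 23 to miR-466, 14 to miR-467 and 5 to miR-297, and 48 carried Gm names. The middle of the array was a tandem repeat. The 10 numbered Mir467a genes followed each other at a median interval of 2.46 kb (2.41 to 4.88 kb), each followed by a miR-466 gene and a miR-669 gene or their Gm-named copies. The 119 precursors had 88 distinct sequences in GENCODE, and 47 precursors were identical to at least 1 other. The largest sets were 9 identical Mir669a genes, from Mir669a-4 to Mir669a-12, and 7 identical genes made up of 6 numbered Mir467a genes and Gm25022.

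Base composition also set the members beside the rest of the table, without a test. Their median GC content was 37.3%, against 50.8% over all 2202 genes, and their median longest stretch of alternating T and G or alternating C and A was 9 bases against 4. A stretch of at least 12 bases occurred in 19 members (16.0%) and in 149 of all genes (6.77%).

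The RefSeq sequence table (GRCm38.p6) matched 0 of the 119 members and gave a mature sequence for 8 of the 10 genes of these families that lie outside Sfmbt2. Representatives of 3 families are shown, 5′ to 3′ with the seed (bases 2 to 8) in capitals, to show the short repeats typical of these families. The first is the single relative with any read in these libraries.
mmu-miR-466q: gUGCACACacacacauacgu
mmu-miR-466k: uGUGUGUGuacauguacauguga
mmu-miR-467h: aUAAGUGUgugcauguauaugu
mmu-miR-669n: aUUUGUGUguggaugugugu
The longest alternating stretch was 12 of 20 bases in miR-466q, 9 of 23 in miR-466k, 7 of 22 in miR-467h and 8 of 20 in miR-669n. All 8 relatives with a mature sequence had different seeds. These sequences belong to loci on chromosomes 3 (miR-466q, miR-466k and miR-669n) and 9 (miR-467h), not to members of the cluster.

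The depth was 4429633 sense counts in miRNA genes in replicate 1 and 6985784 in replicate 2. With the limit that a count of 0 allows set at 3 counts of a library's total, this was 0.677 CPM and 0.429 CPM. Reads placed at several loci made up 43.9% and 47.9% of all reads and entered no gene's count, so each value below is a level of uniquely placed reads and not of a mature miRNA shared between copies. The 12 listed cortex markers all held counts, and 8 of them reached 2 CPM in each library. They were led by Mir139 with 180976 and 214070 CPM and by Mir132 with 42570 and 61586 CPM. The 3 Mir124a genes, a family with repeated precursors, each stayed under 2.3 CPM, and Mir9-2 was at 1.13 and 1.57 CPM. Mir9-1 (11.1 and 64.3 CPM) and Mir9-3 (4.06 and 22.5 CPM) were higher in replicate 2. The 14 genes of the embryonic Mir290 and Mir302 clusters, which are active in early embryos as Sfmbt2 is, summed to 2.93 and 3.15 CPM, and 5 of them, among them Mir290a and Mir367, had no count. Mir122, the defining liver gene, was at 25.3 and 31.3 CPM. Of 5 muscle genes 4 were at 0, and Mir206 was at 19.9 and 29.5 CPM. The 4 at 0 were Mir1a-1, Mir1a-2, Mir133a-1 and Mir133a-2, which are numbered as copies. Reads shared between copies are in no count, so these zeros are not read as absence of the mature RNAs. The part of these other tissues in the results was not tested.

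The cluster as a whole held 2479 counts in replicate 1 and 3426 in replicate 2. This was 0.0560% of all counts in the first library, with a 95% Wilson interval of 0.0538 to 0.0582. In the second it was 0.0490% (0.0474 to 0.0507), which gives a mean of 0.0525% ± 0.00489 (SD, n = 2). These intervals cover counting error only. Of the members' counts, the 8 detected genes held 99.5% and 99.8%, and Mir467d with Mir669c alone held 59.7% and 63.0%. The share of members with any count was 14.3% (17 of 119), beside 35.7% (787 of 2202) over all genes, and the share detected was 6.72% beside 19.9%. No member had a single read on the opposite strand in either library.

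**Figure D1:**
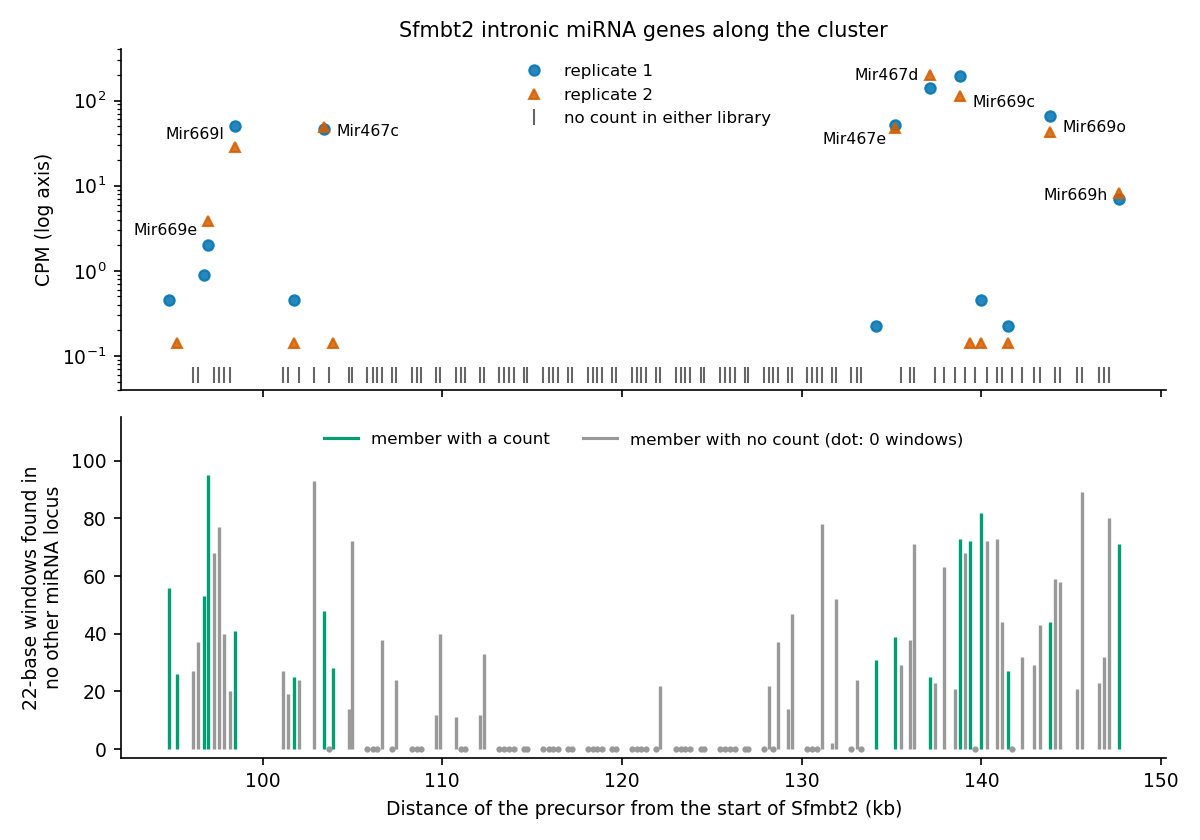
Upper panel: CPM of each member with a count in replicate 1 (circles) and replicate 2 (triangles) on a log axis, against the distance of its precursor from the start of Sfmbt2 in kb, with ticks for the 102 members with no count. Lower panel: number of 22-base windows of each precursor found in no other annotated miRNA locus, which is 0 for 51 of the 69 members in the middle run that has no count.

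The miR-467 family held 3 of the 8 detected genes, each with a letter of its own and none from the Mir467a tandem copies. miR-467 RNAs are known as repressors of the angiogenesis inhibitor thrombospondin-1. Mir467d (10507630 to 10507714) was counted 620 times in the first library and 1381 times in the second, or 140 and 198 CPM, a mean of 169 ± 40.8 CPM (SD, n = 2). It ranked 176th of all 2202 genes and first in the cluster. Mir467e (10505721 to 10505807) had 227 and 335 counts, or 51.2 and 48.0 CPM. Mir467c (10473931 to 10474027) had 206 and 342 counts, or 46.5 and 49.0 CPM. The values of Mir467e and Mir467c overlapped, so their order is not resolved, and those of Mir467d were above both in each library. The other 11 miR-467 members, Mir467b and all 10 Mir467a genes, had no count.

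The miR-669 family held the other 5 detected genes. Members of this family have been described as brakes on the muscle programme in the heart and, for miR-669c, as rising in the ageing liver. Mir669c (10509296 to 10509404) had 860 and 779 counts, or 194 and 112 CPM, a mean of 153 ± 58.4 CPM (SD, n = 2). It stood above Mir467d in replicate 1 and below it in replicate 2, so the order of these leading genes differed between the libraries. Mir669o (10514300 to 10514395) had 291 and 298 counts, or 65.7 and 42.7 CPM. Mir669l (10468971 to 10469068) had 223 and 201 counts, or 50.3 and 28.8 CPM. Over both libraries, the range of each overlapped those of Mir467e and Mir467c. These 4 genes formed a middle group that lay below both leading genes in each library. Within a library some of them separated by their exact counting intervals. In replicate 2 Mir669l (24.9 to 33.0 CPM) lay below Mir467e (43.0 to 53.4) and Mir467c (43.9 to 54.4). In replicate 1 Mir669o (58.4 to 73.7 CPM) lay above Mir467c (40.4 to 53.3). Mir669o was above Mir669l in each library. Mir669h (10518155 to 10518279), the last precursor of the cluster, had 31 and 57 counts, or 6.998 and 8.16 CPM. Mir669e (10467495 to 10467613) had 9 and 27 counts, or 2.03 and 3.86 CPM, just over the limit of detection, and fell under it in replicate 1 when library sizes were scaled by TMM or by DESeq2 size factors. Mir669h and Mir669e stood apart from the middle group and from each other in both libraries.

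**Figure D2:**
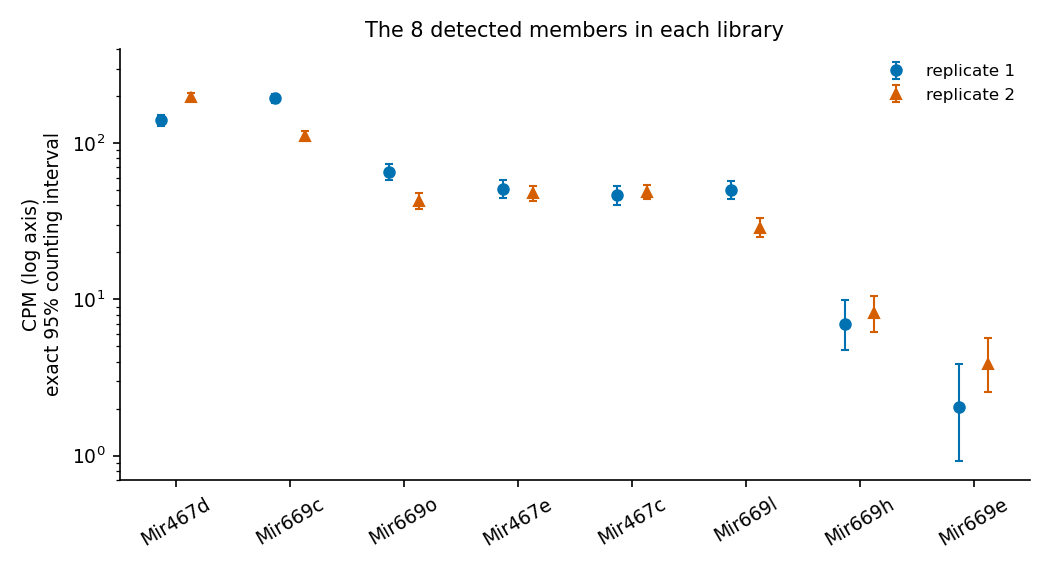
CPM of the 8 detected members in replicate 1 (circles) and replicate 2 (triangles), on a log axis, with exact 95% counting intervals of each library. Mir669c, Mir669o and Mir669l are lower in replicate 2, from 112 down to 28.8 CPM, and Mir467d is higher there at 198 CPM.

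Below these genes, 9 members held 1 to 4 counts in all, 12 in replicate 1 and 6 in replicate 2 together. Mir669f had 4 counts in replicate 1 (0.903 CPM) and 0 in replicate 2. Mir297a-2, the highest miR-297 gene, and Gm22239, the highest of those with Gm names, each had 2 and 1 counts, or 0.452 and 0.143 CPM. The miR-466 family was nearly empty of uniquely placed reads. Of its 23 members in the cluster only Mir466d (10511967 to 10512062) held a read, 1 in each library, or 0.226 and 0.143 CPM. The family includes Mir466l, known for stabilising interleukin-10 messenger RNA in macrophages, and Mir466h, described as promoting apoptosis in cultured cells, and neither had a count. Mir669a-3 was the only one of 12 Mir669a genes with a read, 1 in replicate 2.

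Which precursors could be counted at all was examined next, since the tables hold uniquely placed reads only. Each precursor was divided into windows of 22 bases, and a window was taken as its own when no other annotated miRNA locus held it on either strand. Of the 119 members, 65 had at least 1 such window and 54 had none. The 54 without one (45.4% of members, beside 11.7% of all other miRNA genes) held no count in either library. All 17 members with a count had windows of their own, from 25 (of 64 in Mir467d, the leading gene, and of 69 in Mir297a-2, which was not detected) to 95 of 98 in Mir669e, the lowest of those detected. Of the 65 members with an own window, 17 held a count (26.2%) and 8 were detected (12.3%), beside 41.6% and 23.3% of the 1840 other genes with one. An own window need not lie in the mature RNA, whose place in the precursor was not used here, and other parts of the genome were not searched.

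By family, an own window was present in 4 of 14 miR-467, 16 of 29 miR-669, 14 of 23 miR-466 and all 5 miR-297 members, and in 26 of 48 with Gm names. Of those, 3 miR-467, 7 miR-669, 1 miR-466, 1 miR-297 and 5 Gm-named members held a count. The 1 miR-467 gene with an own window and no count was Mir467b (11 of 52 windows), and 13 miR-466 genes had an own window and no count. The difference between families was not tested. Members with own windows and no count began, in order of position, with Mir466m (27 of 63 windows), Mir466f-1 (37 of 73), Mir669b (68 of 76), Gm23578 (77 of 83) and Mir669d (40 of 100). None of these had a count in either library.

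Reads came from both ends of the array. The first 19 members, from Gm22072 to Mir669a-3, held 446 and 573 counts, with 8 members counted. The next 69 in a row, from Mir669k to Mir669a-12 (10475300 to 10503877, 28.6 kb), had no count in either library, and reads they share with other loci would not be counted. The last 31, from Gm26398 to Mir669h, held 2033 and 2853 counts, with 9 members counted. Own windows were present in 18 of the first 19 members, 18 of the middle 69 and 29 of the last 31. The middle stretch held 46 of the 47 precursors with an identical copy, and it was defined here by its lack of counts. By that definition its 18 members with own windows, up to 78 in 1 precursor, had no uniquely placed read. No Mir467a gene, 2 of 8 Mir466b genes and 1 of 12 Mir669a genes had an own window.

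The difference between the libraries was then taken for each of the 8 detected members, with TMM-scaled library sizes. Ratios are replicate 2 over replicate 1, and the exact binomial test compares these libraries and their counting error, not conditions. None of the 8 passed an adjusted p under 0.05 together with a ratio of at least 2, a rule that 18% of the 438 genes tested passed. At an unadjusted p under 0.05 there were 4, and the same number at an adjusted p under 0.05 with no limit on the ratio, a rule that 63.9% of all tested genes passed. With 8 genes tested, neither share is read as a result about the members.

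Mir669c, Mir669l and Mir669o were lower in replicate 2, and Mir467d was higher. Mir669c had a log2 ratio of -0.67 (exact 95% interval -0.82 to -0.53) with an exact binomial adjusted p = 1.1e-20. Mir669l had -0.68 (-0.96 to -0.40) and Mir669o -0.50 (-0.74 to -0.26). Mir467d had 0.62 (0.49 to 0.76), with an exact binomial adjusted p = 1.7e-19. Mir467c, at 0.20 (-0.05 to 0.46), and Mir467e, at 0.03 (-0.22 to 0.28), did not pass, nor did Mir669h at 0.34 (-0.31 to 1.03) or Mir669e at 1.00 (-0.08 to 2.33). Of the members' counts, miR-467 genes made up 42.5% in replicate 1 (95% Wilson interval 40.5 to 44.4) and 60.1% in replicate 2 (58.4 to 61.7), and miR-669 genes 57.2% and 39.8%. These intervals do not overlap, but the spread between further libraries is unknown.

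Base composition moved with the ratios across the table. Over the 438 genes tested, the log2 ratio changed by -0.35 for each 10 percentage points of precursor GC, and the detected members lay between 34.7% and 42.9%, under the median of 53.2%. With this trend removed, Mir669l (-1.27), Mir669c (-1.09) and Mir669o (-1.02) passed both limits toward replicate 1, and Mir467d fell to 0.30. Mir467e, at 0.03 as measured, was then at -0.48 with an exact binomial adjusted p = 0.00028, from 0.88, and stayed short of a ratio of 2. Over the other alternatives its exact binomial adjusted p ran from 0.53 to 0.98. How many of the 438 genes passed both limits with the trend removed was not counted. The members that did are therefore not read as a result about the cluster. With and without the trend, Mir467d (42.4% GC) was higher in replicate 2 and Mir669c (39.4%) was lower there. The part of GC content in these ratios was not tested. Each library cites an adapter trimming document of its own, so trimming and replicate cannot be told apart.

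**Figure D3:**
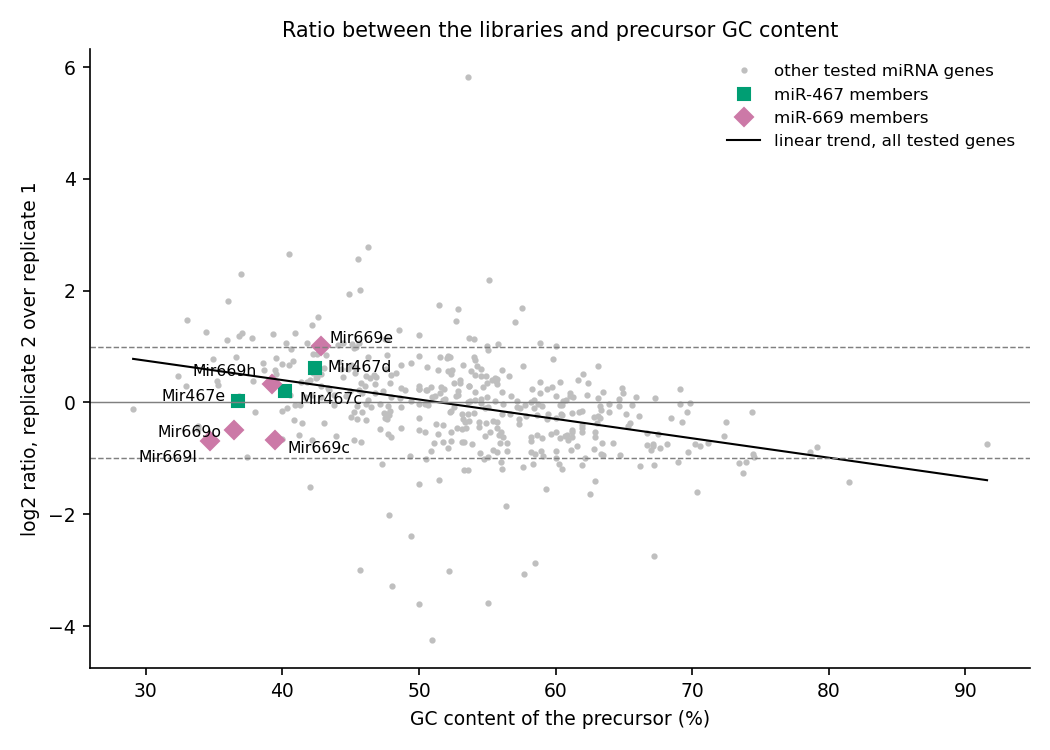
Log2 ratio of replicate 2 over replicate 1 against precursor GC content in percent for the 438 tested genes, with miR-467 members as squares, miR-669 members as diamonds, the linear trend over all tested genes as a line and dashed lines at a ratio of 2 either way. The 8 members lie between 34.7% and 42.9% GC, and Mir669c, Mir669o and Mir669l lie below 0.

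Set beside other miRNA genes, with no test since there are 2 libraries of 1 group, the cluster held few uniquely placed reads. Only 65 of its 119 members had own windows, and reads that members share with other loci are in no count. The values below are therefore not compared as levels of mature miRNA. The 10 genes of the same families outside Sfmbt2 all had windows of their own, and 9 had no count. The exception, Mir466q on chromosome 3 (28419943 to 28420018), had 8 and 7 counts, or 1.81 and 1.00 CPM. The Mir379 to Mir410 array of chromosome 12, another long imprinted tandem array, held counts in 35 of 38 genes, a median of 218 CPM and 4.53% ± 0.298 of all counts (SD, n = 2), and all 38 genes had own windows. The 5 genes within Clcn5, an intronic cluster, all held counts and had own windows, with a median of 331 CPM and 0.156% ± 0.0398 of all counts. The median of the Sfmbt2 members was 0 CPM, as was that of all 2202 genes, and the median over the 17 members with a count was 0.452 CPM, beside 3.88 CPM over the 787 genes with one.

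**Figure D4:**
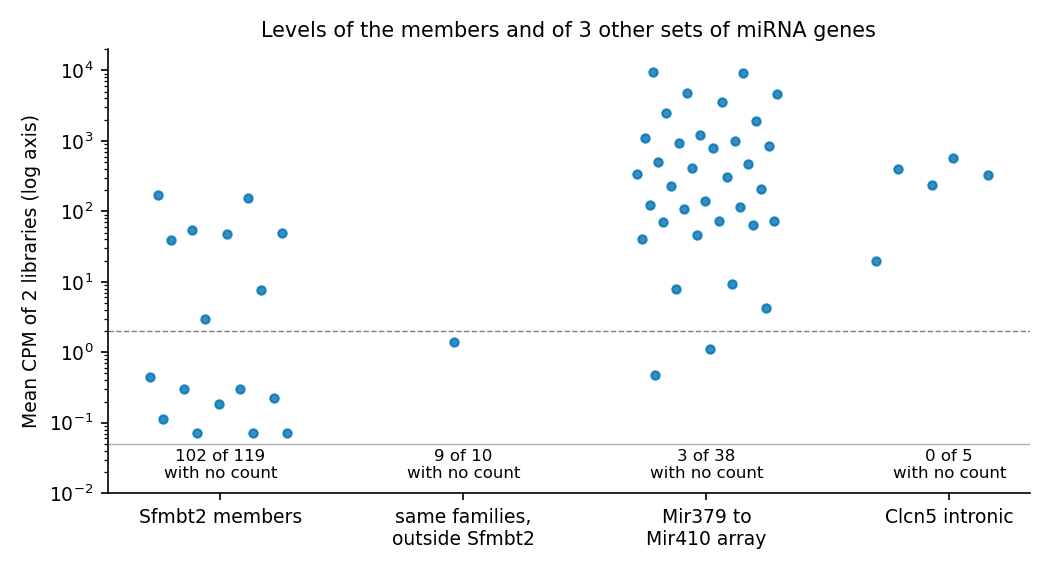
Mean CPM of 2 libraries on a log axis for each gene of the Sfmbt2 cluster, of the same families outside Sfmbt2, of the Mir379 to Mir410 array and of the Clcn5 introns, with the dashed line at 2 CPM and the number of genes with no count under each set. In the Sfmbt2 cluster 102 of 119 genes have no count and 8 lie above the line, up to 169 CPM.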

How the data were processed

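The authors deposited 1 table of raw read counts per library, with columns for either strand, the sense strand and the opposite strand. Per the labels and the readme text, they use mm10 and GENCODE M21. The sources used here do not name the aligner or the counter. The 4 summary lines that name no gene were left out, and sense counts were scaled to CPM over all 2202 gene lines. All 119 members were in the tables. Precursor windows, GC content and repeats were computed from GENCODE transcript sequences, with overlapping miRNA genes taken as 1 locus. The 438 genes that reached 2 CPM in each library were tested. For each, the split of its reads between the libraries was set against TMM library sizes (edgeR 4.0.16). The test was a two-sided exact binomial test with Benjamini-Hochberg adjustment. It was checked on counts simulated with counting error only, so other differences between libraries were not covered by the check. Ratios have 0.5 counts added. DESeq2 1.42.0 gave alternative size factors, and the tested genes had a median log2 ratio of -0.03, or -0.16 if library totals were used. Reads carry no molecular identifiers, so intervals and the floor of 3 counts cover counting error only. A mature RNA gives reads of about its own length, so levels were not divided by precursor length. Members named are the 10 of highest mean CPM (tied genes included), the highest of each family, and the first 5 by position with an own window and no count; Mir466l, Mir466h, Mir669a-3, Mir467b, Mir466g and Mir466q were chosen after their values were seen. The members and lists were chosen with earlier results of these data known.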

Additional observations from a re-analysis of the deposited data

How the results depend on the processing

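The count of 17 members with a read was 11 when a read was required in both libraries and 9 with at least 3 counts in either, and 0 in the opposite-strand column. It was 14 without replicate 1 and 14 without replicate 2. The members' share of 0.0525% was 0.0654% with Mir139 left out of the total and 0.0356% without Mir467d. Of the 8 detected members, 7 were detected with TMM library sizes, DESeq2 size factors or a minimum of 5 CPM. The count of 0 members different between the libraries was 3 at a ratio of 1.5 and 4 with no limit on the ratio. It was 3 with the GC trend removed, a setting added after the data were seen. The count was also 0 with library totals, DESeq2 size factors, no filter, 5 CPM and the either-strand column. Over all tested genes, the share passing was counted only at a ratio of 2 (18%) and with no limit on the ratio (63.9%). Log2 ratios that changed sign were Mir467c (-0.20), Mir467e (-0.48) and Mir669h (-0.092) with the GC trend removed, and Mir467e (-0.10) with library totals. Members with an own window numbered 65 with windows of 18 bases or with all annotated transcripts compared, and 66 with 29 bases; these settings were also added after the data were seen. The planned search of mature sequences in the genome was not run, as no genome of the build was used here.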

Other observations

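Some members with no uniquely placed read had precursors made mostly of own windows, as compared with annotated miRNA loci only. They were picked out after the values were seen. At least 60 own windows were present in 12 members with no count, Mir466l among them. Members with a count also reached 60, among them Mir669e (95), Mir669c (73) and Mir669h (71). An own window without a count was common elsewhere too. It occurred in 1074 of the 1840 other genes with an own window, beside 48 of the 65 members with one. Mir466g had 59 own windows of 59, Mir466h 58 of 60 and Mir466l 89 of 100. With all annotated transcripts compared these were 58, 55 and 86, and other parts of the genome were not searched. Over the rest of the table, 4 of the 243 miRNA genes without an own window held a count, up to 56 counts in a single gene over both libraries. Why these 4 held counts was not tested.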
